A study of Mus musculus with 11 samples.

Results

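Tcte3, Gm3417, Gm3448 and Gm3435 are 4 neighboring genes in 1 segment of mouse chromosome 17, and they were chosen by their shared rise in testes of mice lacking iron regulatory protein 1 (Irp1). They are 4 of the 24411 genes in the count table. Polyadenylated RNA of whole decapsulated testis from 11 untreated mice aged 20 weeks was sequenced as paired-end reads of 50 bases. The aim was to find gene expression changes that bear on spermatogenesis. WT mice (n = 4) were C57Bl/6J. Irp1-/- mice (n = 4) carried the Aco1 tm1Roua allele on a C57Bl/6J background, which is a global knockout of Aco1, the gene for Irp1. Their WT controls were littermates from heterozygous parents. Irp2-/- mice (n = 3) were global knockouts of Ireb2, the gene for iron regulatory protein 2, and their strain was not stated in the sources used here. Because the genes were selected on the contrast of Irp1-/- with WT testes, their values in it are a description without a test. Irp2-/- testes took no part in that choice and were tested, although against the same WT mice. WT values low by chance would favor both the choice of a gene and a rise in Irp2-/- testes.

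Tcte3, also called Tctex2, encodes a light chain of the outer dynein arm, the motor complex that bends the sperm tail, and its mRNA is known from germ cells of the testis. The gene lies in the t complex of chromosome 17, a region known for haplotypes that distort transmission through sperm. Gm3417 and Gm3448 are annotated as further copies of Tcte3. Ermard, the neighbor of Tcte3 on the opposite strand, encodes a membrane protein of the endoplasmic reticulum named for a role in RNA breakdown.

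The 4 genes span chr17:14964189-15041559 of GRCm38.p6 (mm10), a stretch of 77371 bases, in RefSeq. Gm3417 (NCBI gene 100041586) lies at chr17:14964189-14978812 on the minus strand. Gm3448 (100041639) lies at chr17:14995783-15010184 and Tcte3 (21647) at chr17:15027154-15041559, both on the minus strand. Gm3435 (100041621) lies at chr17:15009840-15022449 on the plus strand. Each gene on the minus strand has a plus-strand gene starting beside its own start: 9030025P20Rik (chr17:14978864-14991577) beside Gm3417, Gm3435 beside Gm3448, and Ermard (chr17:15041551-15090045) beside Tcte3. The segment thus holds 3 units of the same layout. Gm3435 and Gm3448 overlap on opposite strands, from chr17:15009840 to chr17:15010184. Ermard and Tcte3 overlap by a few bases, while 9030025P20Rik starts after the start of Gm3417 without overlap.

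In the full-length coding models of GENCODE M21, Tcte3, Gm3417 and Gm3448 each had 4 exons and a coding sequence of 573 bases. The coding sequences of Gm3448 and Tcte3 were identical, and that of Gm3417 differed from both at 1 base. That difference is G373C, counted from the first coding base, with the base of Gm3417 first and that of Gm3448 and Tcte3 last. It is a coding base of exon 3, which is 156 bases long in each copy. Exon 3 is shown for the 3 copies, with the differing base in capitals, because it is the only coding place where a read can separate Gm3417 from the others. It lies at chr17:14967546-14967701 in Gm3417, at chr17:14999142-14999297 in Gm3448 and at chr17:15030509-15030664 in Tcte3 (minus strand, GRCm38).
Gm3417: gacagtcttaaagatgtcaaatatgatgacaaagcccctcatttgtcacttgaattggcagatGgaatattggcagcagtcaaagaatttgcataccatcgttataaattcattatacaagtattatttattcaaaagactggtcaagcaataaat
Gm3448: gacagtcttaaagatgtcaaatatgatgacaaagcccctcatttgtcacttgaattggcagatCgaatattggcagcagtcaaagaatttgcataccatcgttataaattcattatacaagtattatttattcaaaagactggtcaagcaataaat
Tcte3: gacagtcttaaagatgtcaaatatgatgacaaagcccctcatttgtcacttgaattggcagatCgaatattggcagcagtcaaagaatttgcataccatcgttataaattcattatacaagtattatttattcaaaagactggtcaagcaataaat

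Gm3435 was not a copy of Tcte3 but of Ermard. Its model had 12 exons and a coding sequence of 1314 bases, of which 1310 were identical to 9030025P20Rik. Of the 1253 coding bases that aligned with the longer Ermard, 1246 were identical. The last exon of Gm3435 held a group of differences, and 60 coding bases of it are shown with the bases that differ between the 3 genes in capitals. Counted from the first coding base of Gm3435, the stretch runs from position 1097 to 1156 and holds A1112G and T1114A against Ermard and T1138C against both other genes, with the base of Gm3435 first. It lies at chr17:15021952-15022011 in Gm3435, at chr17:14990584-14990643 in 9030025P20Rik and at chr17:15053251-15053310 in Ermard (plus strand, GRCm38). The group is therefore called by its genes rather than as 4 copies of Tcte3.
Gm3435: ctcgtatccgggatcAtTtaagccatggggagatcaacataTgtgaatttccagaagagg
9030025P20Rik: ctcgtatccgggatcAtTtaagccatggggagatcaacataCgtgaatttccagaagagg
Ermard: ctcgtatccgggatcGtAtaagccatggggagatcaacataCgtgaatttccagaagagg

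These likenesses limit what a read can tell. The models were cut into all overlapping 50-base windows, the length of 1 read, and each window was looked up in all 141767 mouse transcripts. Of 671 windows of Tcte3, 643 (95.8%) were also in Gm3417 or Gm3448, and 28 (4.17%) were in no other gene. For Gm3448, 20 of 703 windows (2.84%) were in no other gene. For Gm3417, 50 of 663 windows (7.54%) were in no other gene. For Gm3435, 1485 of 1635 windows (90.8%) were also in 9030025P20Rik or Ermard, and 150 (9.17%) were in no other gene. No window of the 4 models was found in a gene outside its own family. The counts came from an nf-core RNA-seq pipeline with standard settings, but the counting tool was not named in the sources used here. How shared reads were divided between copies is therefore not known, and the value of a single copy is uncertain. Sums over copies do not depend on that division, although they would miss any shared reads that were dropped. The 300-base windows around the starts of Tcte3, Gm3417 and Gm3448 in RefSeq, from 250 bases before to 50 after, were identical in sequence.

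**Figure D1:**
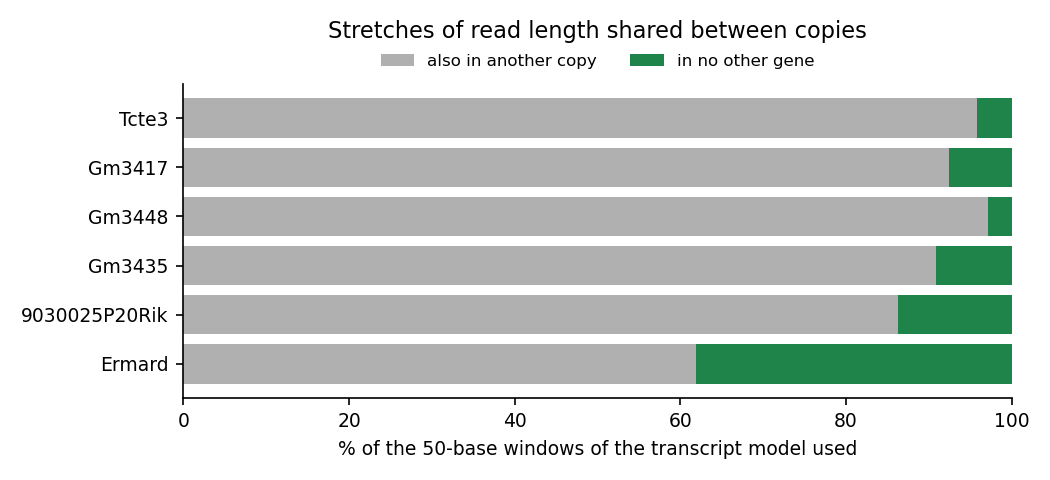
The percent of all 50-base windows of each transcript model (x axis) that were also found in another copy (grey) or in no other gene (green), for the 3 Tcte3 copies and the 3 Ermard-type genes. Between 2.84% and 9.17% of the windows of the 4 chosen genes were in no other gene, and Ermard had the largest own part of the 6 models shown.

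Total counts lay between 15902473 and 22451417 per library. Levels are given as CPM, read counts scaled to a common library size, after TMM normalization, which assumes that most genes do not change. Ireb2, the gene targeted in Irp2-/- mice, had 62.1 ± 0.805 CPM there (SD, n = 3), where WT testes had 140 ± 5.91 CPM (SD, n = 4). Irp1-/- testes had 8.60 ± 0.636 CPM of Aco1 (SD, n = 4), all below the WT testes at 11.8 ± 1.37 CPM (SD, n = 4). Markers of round and elongating spermatids, such as Acrv1 and Prm1, were detected in all libraries. The column name of Irp1-/- replicate 6 held an R where all others held an L, a letter whose meaning was not stated. edgeR's quasi-likelihood test, with Benjamini-Hochberg adjusted p, was run over all genes in both comparisons and gave the background. In Irp1-/- against WT, 164 of 16002 genes tested (1.02%) had an adjusted p under 0.05, of which 93 were higher (0.581% of those tested). In Irp2-/- against WT, 196 of 16154 genes tested (1.21%) passed, of which 60 were higher (0.371%). All 4 chosen genes passed the filter on low counts in both comparisons.

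The 3 copies of Tcte3 together were at 1579 ± 45.4 CPM (SD, n = 4) in WT testes, 2056 ± 42.2 CPM (SD, n = 4) in Irp1-/- testes and 1543 ± 58.3 CPM (SD, n = 3) in Irp2-/- testes. Per kb of transcript model, Gm3417 was at 985, Gm3448 at 932 and Tcte3 at 246 CPM per kb in WT testes. Gm3435 was at 3.22 CPM per kb in WT testes. The order of levels per length in WT was thus Gm3417 and Gm3448, then Tcte3, and far below them Gm3435. Between Gm3417 and Gm3448 the counts were nearly equal in every library, so their order per kb reflects the model lengths of 712 and 752 bases. In Irp1-/- testes the levels per kb were 1193 for Gm3417, 1130 for Gm3448, 496 for Tcte3 and 5.59 for Gm3435, in the same order.

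Tcte3 itself was at 160, 170, 187 and 190 CPM in the 4 WT testes. In Irp1-/- testes it was at 390, 307, 361 and 370 CPM in replicates 1, 2, 6 and 7. Every Irp1-/- testis was above every WT testis, and the mean was 357 ± 35.2 CPM (SD, n = 4) against 177 ± 14.0 CPM (SD, n = 4). The ratio of the geometric means was 2.02, a log2 difference of 1.01. In the 3 Irp2-/- testes Tcte3 was at 219, 209 and 206 CPM, which lay between the other groups and overlapped neither. In bulk testis RNA, a change in the number of cells that express a gene and a change of its RNA per cell cannot be told apart.

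Gm3417 was at 743, 693, 679 and 689 CPM in the WT testes and at 821, 861, 840 and 875 CPM in the Irp1-/- testes. These groups did not overlap either, but the log2 difference was 0.28 on means of 849 ± 24.0 CPM (SD, n = 4) and 701 ± 28.7 CPM (SD, n = 4). In Irp2-/- testes Gm3417 was at 691, 664 and 642 CPM, within or below the WT range. Gm3448 gave almost the same numbers, with a mean of 701 ± 28.3 CPM in WT (SD, n = 4), 850 ± 23.9 CPM in Irp1-/- (SD, n = 4) and 666 ± 27.3 CPM in Irp2-/- testes (SD, n = 3). Its log2 difference between Irp1-/- and WT testes was 0.28 as well.

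Gm3435, the copy of Ermard, was rare. Its counts were 95, 97, 94 and 89 reads in WT libraries, 164, 197, 175 and 182 reads in Irp1-/- libraries and 101, 106 and 141 reads in Irp2-/- libraries. On the CPM scale this was 5.42 ± 0.468 (SD, n = 4) in WT, 9.41 ± 1.35 (SD, n = 4) in Irp1-/- and 5.78 ± 1.52 (SD, n = 3) in Irp2-/- testes. The Irp1-/- testes, from 8.61 to 11.4 CPM, were above all WT testes, from 4.91 to 6.04 CPM, with a log2 difference of 0.79. The Irp2-/- testes ranged from 4.47 to 7.45 CPM and spanned the whole WT range. Gm3435 overlaps the far more abundant Gm3448 on the opposite strand. The libraries were made with a stranded kit, but whether the counting used the strand was not stated in the sources used here. Whether reads of Gm3448 added to the counts of Gm3435 was not tested.

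**Figure D2:**
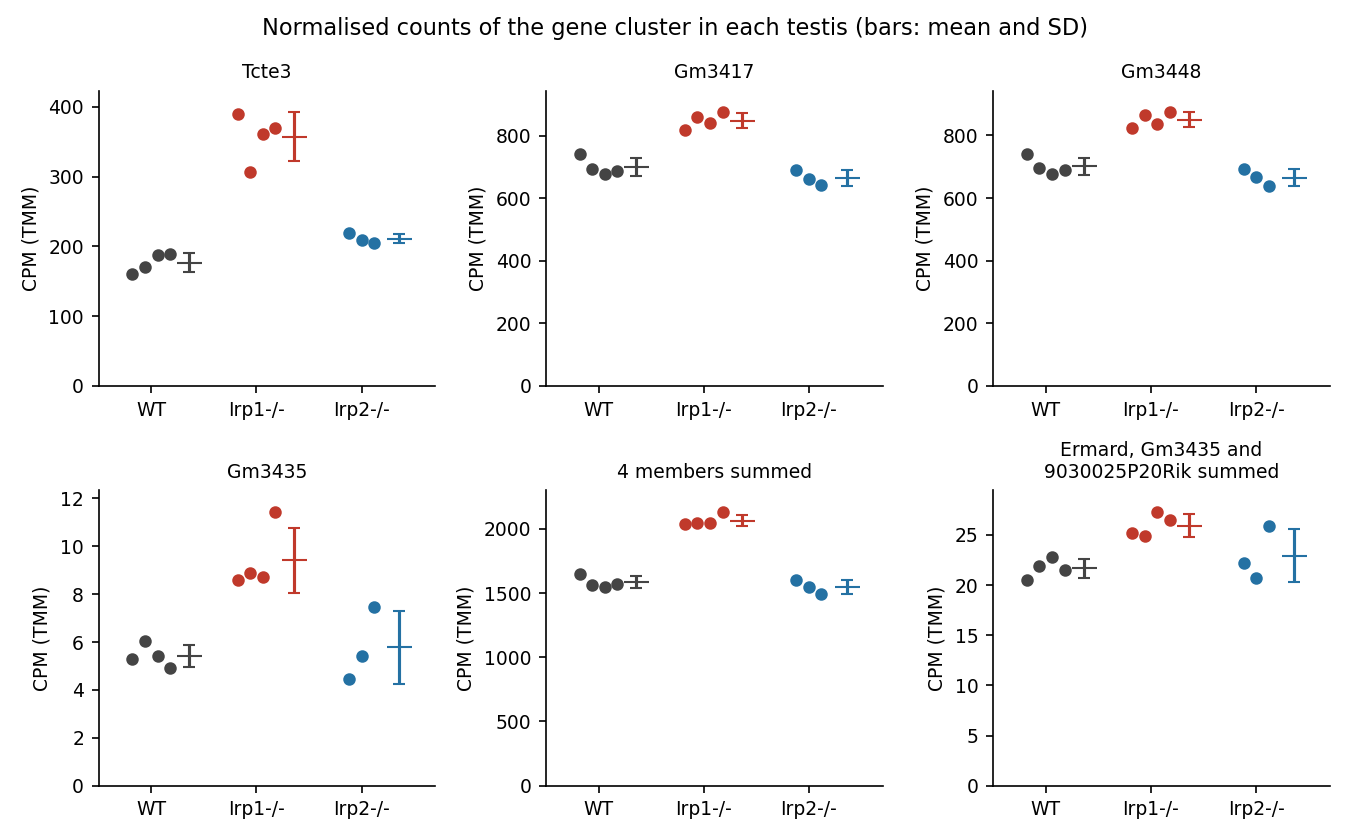
CPM after TMM normalization (y axis, from 0) of each testis (points) with the group mean and SD (bars) for WT (n = 4), Irp1-/- (n = 4) and Irp2-/- (n = 3) mice. The 4 Irp1-/- points lie above all WT points in each panel. The ratio of the geometric means was largest for Tcte3 (2.02), whose Irp2-/- points lie between both groups at 206 to 219 CPM.

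All 4 genes thus had every Irp1-/- testis above every WT testis. That held for 539 of the 16002 genes tested (3.37%), and since the genes were selected on this contrast, nothing is read from their count. It also held for 9030025P20Rik, which lies inside the segment and was not chosen. Summed, the 4 genes were at 1584 ± 45.3 CPM (SD, n = 4) in WT and 2065 ± 43.5 CPM (SD, n = 4) in Irp1-/- testes, which differed by 0.38 on the log2 scale. Single WT testes ranged from 1547 to 1650 CPM and single Irp1-/- testes from 2042 to 2130 CPM. Of the difference of 481 CPM between the means, Tcte3 made up 180 CPM, Gm3417 148 CPM, Gm3448 149 CPM and Gm3435 4.0 CPM. The log2 difference of the sum was thus smaller than that of Tcte3. As the reads were divided, Tcte3, with the smallest count of the 3 copies, gave the largest single part of the difference. Gm3417 and Gm3448, whose near-equal rows are not separate measurements, gave 297 CPM when summed. The rule named genes and set no threshold, so there are no genes just outside it.

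Irp1-/- and Irp2-/- testes are set side by side as a description. The summed level was 1548 ± 56.8 CPM (SD, n = 3) in Irp2-/- testes, from 1492 to 1606 CPM, so every Irp1-/- testis was above every Irp2-/- testis. The log2 difference of Irp1-/- over Irp2-/- was 0.42 for the sum, 0.75 for Tcte3, 0.35 for Gm3417 and 0.73 for Gm3435.

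The test against WT was made for Irp2-/- testes. Tcte3 was higher by 0.26 on the log2 scale (standard error 0.055, adjusted p = 0.0137, edgeR), with all 3 Irp2-/- testes above all 4 WT testes. Gm3417 differed by -0.07 (standard error 0.046, adjusted p = 0.72, edgeR) and Gm3448 by -0.07 (adjusted p = 0.723, edgeR). Gm3435 differed by 0.09 (standard error 0.15, adjusted p = 0.938, edgeR), and without Irp2-/- replicate 3 its difference was -0.13. Of the 4 genes, 1 was thus called, against 1.21% of all genes in both directions and 0.371% in the upward direction. Tcte3 was also the only one of the 4 whose Irp2-/- testes were all above the WT testes, which held for 739 of 16154 genes tested (4.57%). Unlike the 4 genes, all genes tested were not selected against these WT testes, so no excess is read from these shares. The call of Tcte3 was not firm, as its adjusted p in edgeR was 0.11 with all 11 samples in 1 fit and between 0.0505 and 0.0729 without Irp2-/- replicate 1 or 2 or WT replicate 1 or 2. With DESeq2 it was 0.00295, and the log2 fold change lay between 0.21 and 0.30 in all settings run.

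**Figure D3:**
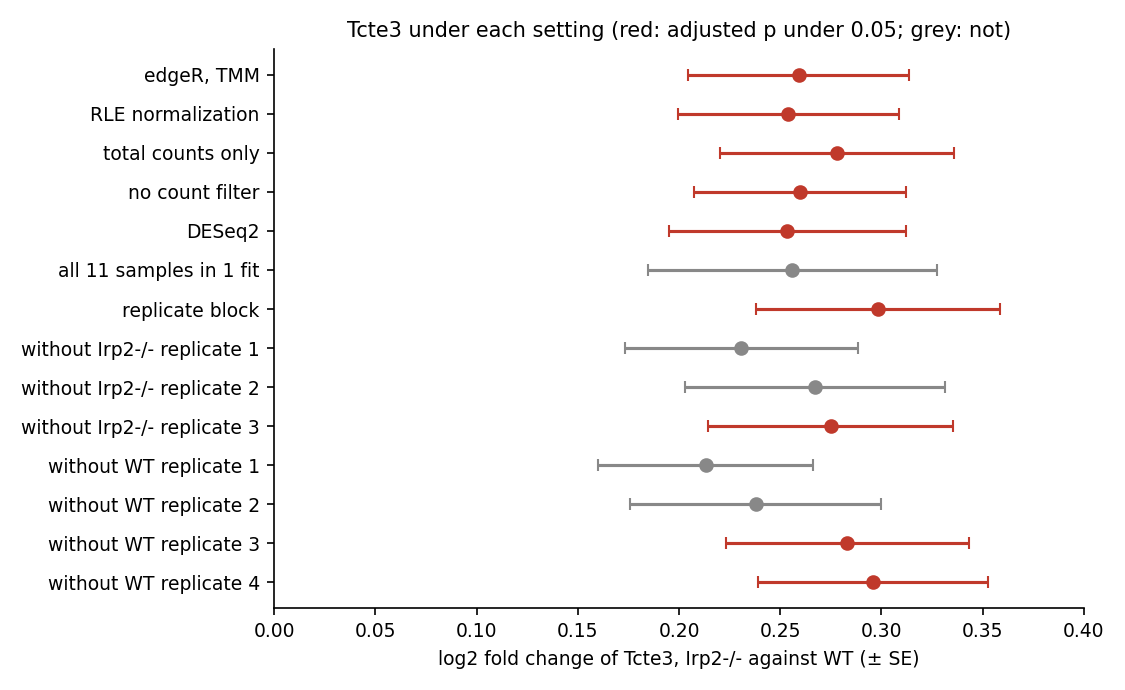
Log2 fold change of Tcte3 in Irp2-/- against WT testes with its standard error (x axis) under each setting (y axis), in red where the adjusted p was under 0.05 and in grey where it was not. Every value is above 0.20, and 5 of the 14 settings shown are grey.

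The summed level did not pass the test. The 4 genes summed differed by -0.03 on the log2 scale in Irp2-/- from WT (exact permutation test over 35 splits, two-sided p = 0.40, smallest possible p = 0.0571). Entered as 1 gene in edgeR, the sum changed by -0.03 on the log2 scale (standard error 0.045, adjusted p = 0.926). The 3 copies of Tcte3 without Gm3435 gave -0.03 (exact permutation p = 0.40), and Gm3417 and Gm3448 summed gave -0.07 (exact permutation p = 0.171). With 3 testes against 4, no exact test of a single value could reach a p of 0.05.

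The share of Tcte3 among the reads of the 3 copies was lowest in WT, higher in Irp2-/- and highest in Irp1-/- libraries. Tcte3 took 9.75%, 10.9%, 12.2% and 12.1% of the reads on the 3 copies in WT libraries. In Irp1-/- libraries it took 19.2%, 15.1%, 17.7% and 17.5%, above every WT library. In Irp2-/- libraries it took 13.7%, 13.6% and 13.8%, again above every WT library and below every Irp1-/- library. The means were 11.2 ± 1.14% (SD, n = 4), 17.4 ± 1.68% (SD, n = 4) and 13.7 ± 0.139% (SD, n = 3). Between Irp2-/- and WT the share differed by 2.47 percentage points (exact permutation p = 0.0571, the smallest this design allows).

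Between Gm3417 and Gm3448 the reads were divided evenly in every library. The ratio of their counts was 1.00 ± 0.00447 (SD, n = 4) in WT, 1.00 ± 0.0042 (SD, n = 4) in Irp1-/- and 1.00 ± 0.00774 (SD, n = 3) in Irp2-/- libraries. Their difference lay between -99 and 98 reads, at most 0.63 of the binomial standard deviation for an even split. The counts thus agreed more closely than separately sampled counts of equal genes mostly would, and the rows are not read as separate measurements. Pearson's r of their log2 CPM was 0.999 over the 11 libraries, while r was 0.827 between Tcte3 and Gm3417 and 0.83 between Tcte3 and Gm3435. These correlations are descriptions over libraries that share their genotypes, and copies share reads.

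**Figure D4:**
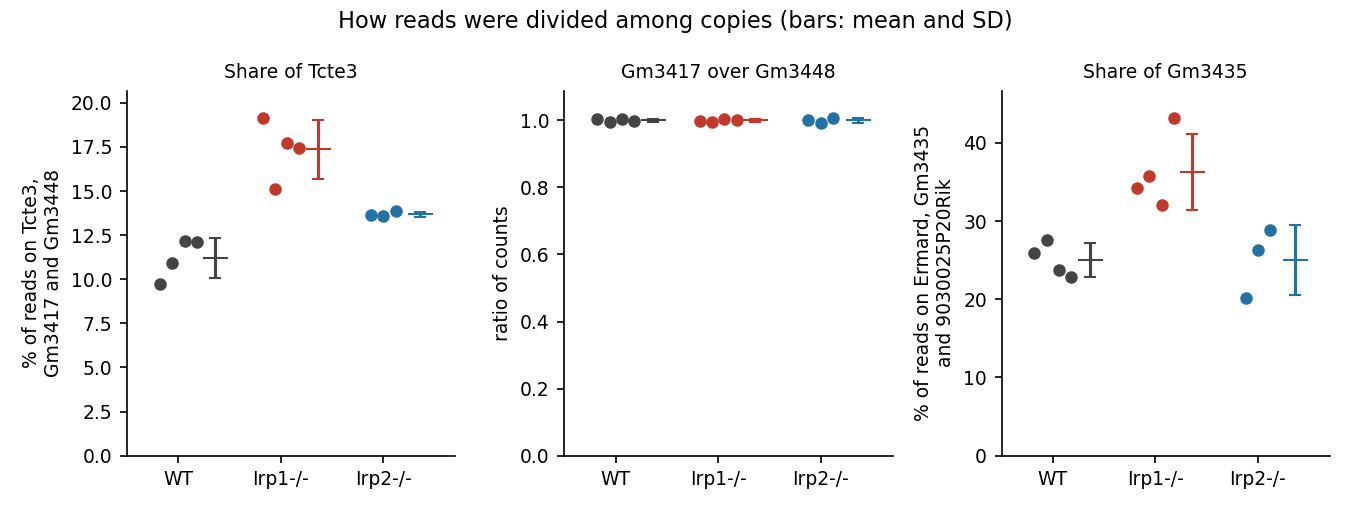
Left, percent of the reads on Tcte3, Gm3417 and Gm3448 that were counted on Tcte3. Middle, ratio of the counts of Gm3417 and Gm3448, close to 1.00 in all 11 libraries. Right, percent of the reads on Ermard, Gm3435 and 9030025P20Rik that were counted on Gm3435. Points are libraries of WT (n = 4), Irp1-/- (n = 4) and Irp2-/- (n = 3) mice, with mean and SD, and the Tcte3 share is lowest in WT and highest in Irp1-/- libraries.

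Among the Ermard-type genes, Gm3435, which was chosen for its rise, had the largest log2 difference between Irp1-/- and WT testes. WT testes had 13.0 ± 0.827 CPM of Ermard (SD, n = 4) and Irp1-/- testes 12.1 ± 1.12 CPM (SD, n = 4), which differed by -0.11 on the log2 scale (adjusted p = 0.675, edgeR). For 9030025P20Rik, WT testes had 3.24 ± 0.809 CPM (SD, n = 4) and Irp1-/- testes 4.43 ± 0.427 CPM (SD, n = 4). The gene did not pass after adjustment (log2 fold change 0.46, unadjusted p = 0.00833, adjusted p = 0.206, edgeR). Its Irp1-/- testes, from 4.02 to 4.99 CPM, were nevertheless all above its WT testes, from 2.07 to 3.92 CPM. In Irp2-/- testes 9030025P20Rik differed from WT by 0.35 on the log2 scale (unadjusted p = 0.0638, adjusted p = 0.577, edgeR). The 3 genes summed were at 21.6 ± 0.973 CPM in WT (SD, n = 4), 25.9 ± 1.13 CPM in Irp1-/- (SD, n = 4) and 22.9 ± 2.66 CPM in Irp2-/- testes (SD, n = 3). Gm3435 took 25.0 ± 2.17% of their reads in WT (SD, n = 4), 36.3 ± 4.85% in Irp1-/- (SD, n = 4) and 25.1 ± 4.47% in Irp2-/- libraries (SD, n = 3). The summed level did not differ detectably between Irp2-/- and WT testes (log2 difference 0.08, exact permutation p = 0.514).

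No other gene around the segment passed the test in edgeR. Within 2 Mb of the segment, 29 other genes were tested, and 0 had an adjusted p under 0.05 in either comparison (edgeR). Since 1.02% of all genes passed in Irp1-/- and 1.21% in Irp2-/- against WT testes, 0 of 29 was near that share. At an unadjusted p under 0.05 there were 4 of 29 (13.8%) in Irp1-/- and 5 of 29 (17.2%) in Irp2-/- against WT testes. Of all genes tested, 1941 (12.1%) had such a p in the first comparison and 1523 (9.43%) in the second. DESeq2 called 0 in the first and 1 in the second, Tcp10c, a t complex gene with a log2 fold change of -0.26 in edgeR (adjusted p = 0.053). The 4 with an unadjusted p under 0.05 in Irp1-/- testes were 9030025P20Rik, Phf10, Smok2a and Smok2b. There Smok2b had a log2 fold change of 0.28 (unadjusted p = 0.0075, adjusted p = 0.195, edgeR), and Smok2a differed by 0.24 (adjusted p = 0.323, edgeR). The median log2 fold change of the 29 genes was -0.01 in Irp1-/- and -0.03 in Irp2-/- against WT testes. On the side of Gm3417, Phf10, which encodes a subunit of the BAF chromatin remodeling complex, differed by -0.08 in Irp1-/- testes (adjusted p = 0.37, edgeR). On that side 1600012H06Rik differed by 0.03 and Wdr27, a gene for a WD-repeat protein, by 0.12. On the side of Tcte3, beyond Ermard, the Notch ligand gene Dll1 differed by -0.25 at under 1 CPM and Fam120b by -0.05. In Irp2-/- testes these 6 neighbors, Ermard included, differed from WT by -0.09 to 0.23.

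**Figure D5:**
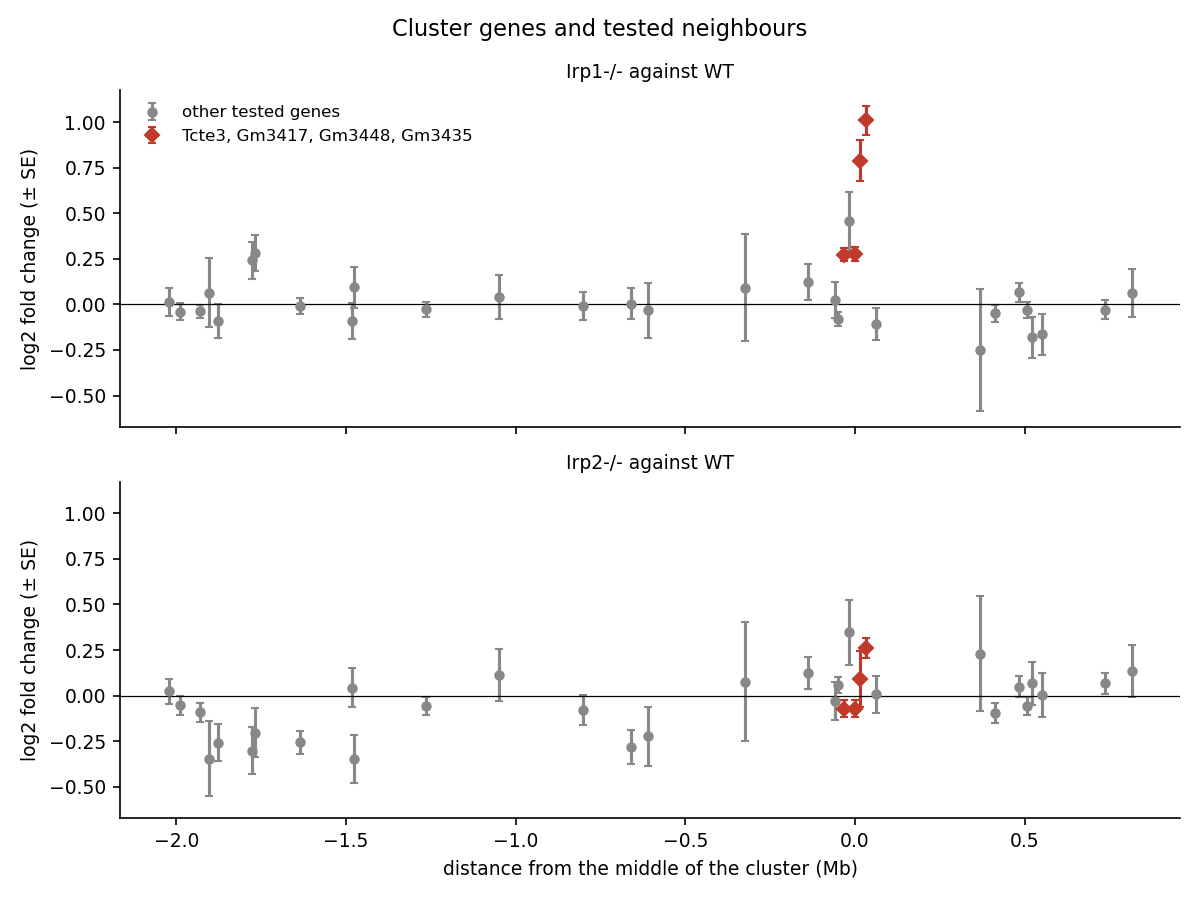
Log2 fold change with its standard error (y axis) against distance from the middle of the segment in Mb (x axis), for the 4 chosen genes (red) and the other tested genes within 2 Mb (grey), in Irp1-/- (top) and Irp2-/- (bottom) against WT testes. The red points in the top panel lie between 0.27 and 1.01. The highest grey points there are 9030025P20Rik at 0.46 and Smok2b at 0.28, inside that range, and Smok2a at 0.24, just below it. In the bottom panel only Tcte3 among the red points lies clearly above 0. The grey point of 9030025P20Rik lies at 0.35 there.

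Other light chains and dyneins were read from lists. Of 7 tested genes of the Tctex1 family of light chains, to which Tcte3 belongs, 1 was called in Irp1-/- against WT testes, where 1.02% of all genes were called, and this was Dynlt1b, a light chain of cytoplasmic dynein encoded elsewhere on chromosome 17. Irp1-/- testes had 30.7 ± 2.98 CPM of Dynlt1b (SD, n = 4) where WT testes had 250 ± 50.8 CPM (SD, n = 4), so that it fell by 3.03 on the log2 scale (adjusted p = 0.00105, edgeR). It is itself one of several near-identical copies, so its row shares the uncertainty described for Tcte3. The other members of this family, such as Dynlt3 and Tctex1d2, had log2 fold changes between -0.14 and 0.05. An unadjusted p under 0.05 was reached by 2 of the 7 (28.6%) in Irp1-/- testes, where 12.1% of all genes reached it. In Irp2-/- testes 0 of the 7 were called by edgeR or DESeq2, and 1 (14.3%) had an unadjusted p under 0.05. Of 7 light chains of the LC8 and roadblock families, such as Dynll1, 0 were called in either comparison by either tool, with 1 at an unadjusted p under 0.05 in each (12.1% and 9.43% of all genes).

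No single gene of the sperm tail lists, which hold the partners of Tcte3, passed the test in edgeR, where 1.02% of all genes passed in Irp1-/- and 1.21% in Irp2-/- testes. Of 12 tested genes of the outer dynein arm, 0 were called in Irp1-/- testes, with a median log2 fold change of -0.05 beside 0.00 for all genes tested. An unadjusted p under 0.05 was reached there by 2 of the 12 (16.7%). The summed level of the 12 was nevertheless 2334 to 2482 CPM in the Irp1-/- testes, below all WT testes at 2493 to 2565 CPM. No gene was called among 16 genes of the inner arm and its regulators (median -0.04), 14 factors that assemble the arms (median -0.04) and 15 cytoplasmic dynein genes (median -0.04). Of 26 tested genes of the t complex, 0 were called (median 0.01). In Irp2-/- testes the medians of these lists lay between -0.04 and 0.00, and 0 genes were called by edgeR. The summed level of the t complex list was nevertheless 6666 to 6910 CPM there, below all WT testes at 6986 to 7258 CPM. Over these lists, 82 genes in all, 5 (6.1%) had an unadjusted p under 0.05 in Irp1-/- and 10 (12.2%) in Irp2-/- testes, against 12.1% and 9.43% of all genes, and DESeq2 called 0 and 1, the latter again Tcp10c.

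Markers of the cell types of the testis gave the background of these values. With 1.02% of all genes called in Irp1-/- and 1.21% in Irp2-/- against WT testes, 0 called in a short list is near that share. Of 6 markers of round spermatids, 0 were called in Irp1-/- against WT testes, and their summed level was 1061 to 1132 CPM in Irp1-/- and 1047 to 1094 CPM in WT testes. For 6 markers of elongating spermatids, 0 were called and the sums were 17756 to 20696 and 18625 to 19467 CPM. Markers of spermatocytes summed to 1103 to 1129 CPM in Irp1-/- and 1149 to 1192 CPM in WT testes, without overlap, and 0 of 6 were called. Markers of Leydig cells, the steroid-making cells between the tubules, had a median of 0.40 on the log2 scale and sums of 918 to 1120 CPM in Irp1-/- and 685 to 966 CPM in WT testes, and 0 of 6 were called. Markers of Sertoli cells, the nurse cells inside the tubules, summed to 177 to 195 CPM in Irp1-/- and 162 to 172 CPM in WT testes, again without overlap. Of these 6, 0 were called and 3 (50%) had an unadjusted p under 0.05. That p was reached by 2 of 6 (33.3%) among the spermatocyte markers and by 2 of 6 among the Leydig cell markers. The sums of 5 blood markers, with Hbb-bs at 0 throughout, were 37.2 to 56.6 CPM in Irp1-/- and 30.1 to 37.1 CPM in WT testes, narrowly without overlap. Markers of spermatogonia, peritubular cells and macrophages had medians of -0.01, 0.05 and 0.02 on the log2 scale, with 0 called. Of 5 markers of the epididymis, none passed the filter on low counts. Over all 48 tested markers, 9 (18.8%) had an unadjusted p under 0.05 in Irp1-/- against WT testes, where 12.1% of all genes did, and DESeq2 called 1, the Leydig cell gene Hsd3b1. In Irp2-/- testes the Leydig cell markers had a median of 0.22 and sums of 707 to 923 CPM, and those of the elongating spermatids had a median of -0.10 and sums of 15686 to 18955 CPM. Over the 47 markers tested there, edgeR and DESeq2 called 0, and 4 (8.51%) had an unadjusted p under 0.05, beside 9.43% of all genes. The part of these shifts in the levels of the chosen genes was not tested.

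Genes whose level went most closely with the sum of the 4 genes were found by Pearson's r of log2 CPM over the 11 libraries, among 11361 genes with a mean of at least 5 CPM. The highest values were those of Zfp462 (r = 0.967, chromosome 4), Gm5800 (r = 0.941, chromosome 14), 1700001F09Rik (r = 0.93, chromosome 14), Dnajc25 (r = 0.922, chromosome 4) and Ndst4 (r = 0.921, chromosome 3). Zfp462, which encodes a zinc finger protein, had mean levels of 16.6 CPM in WT, 29.5 CPM in Irp1-/- and 16.7 CPM in Irp2-/- testes. Dnajc25, a gene for a DnaJ co-chaperone, had 7.08, 13.1 and 7.76 CPM in the same order. Both lie on chromosome 4, as does Aco1, the gene targeted in Irp1-/- mice, at distances of 14.7 Mb for Zfp462 and 18.8 Mb for Dnajc25 from the end of Aco1. These values describe a pattern across 3 genotypes of which 1 stands apart, and none of the 5 genes lies on chromosome 17.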

How the data were processed

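The 11 testis libraries (WT 4, Irp1-/- 4, Irp2-/- 3) were analyzed from raw read counts per gene, which the authors deposited without normalization. The authors made the counts with an nf-core RNA-seq pipeline run with standard settings against mm10 (base calling with bcl2fastq 2.20.0.422 per the labels), and the counting tool is not given in the sources used here. Columns were matched to samples by their names, and all 11 were used. In R 4.3.3, edgeR 4.0.16 was run on the 2 genotypes of each comparison (TMM, filterByExpr, robust quasi-likelihood test, Benjamini-Hochberg adjustment over all genes tested), and DESeq2 1.42.0 as an alternative. The fits were tested on simulated data. Single values were compared with two-sided exact permutation tests. P-values measure the spread between these mice only. Total counts were 15902473 to 22451417 per library.

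The genes and the lists were chosen with earlier results of these data known. Genes named in the text were the 4 chosen genes, every list gene with an adjusted p under 0.05, 3 tested neighbors to either side, the nearest ones, and the 5 genes with the highest correlation to the sum. Marker genes shown as examples were named from the lists. Of the neighbors, 9030025P20Rik was added after its values were seen, because it is the third Ermard-type copy, as were Tcp10c and Hsd3b1, which DESeq2 alone called, and Smok2a and Smok2b, whose values were nearest to those of the chosen genes. Sequences and positions were taken from GENCODE M21 transcripts and RefSeq tables, both of GRCm38, with Python 3 scripts and Biopython alignments. The authors' annotation came from Illumina's iGenomes collection and may differ from these models.

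The alternatives were RLE or total-count scaling, no count filter, DESeq2, all 11 samples in 1 fit, a block for the replicate number, each gene alone or the genes summed before the fit, and leaving out each replicate. The sums of the 3 Tcte3 copies without Gm3435 were chosen after seeing the data. The correlation of deviations between same-numbered samples was -0.10 to 0.177, so the numbers were not taken to pair mice.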

Additional observations from a re-analysis of the deposited data

Results flagged for a closer look

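Irp1-/- replicate 7 stood apart from the other 3 Irp1-/- testes in 4 measures, in that its gap to the next testis was most of the range of the group. Gm3435 was at 11.4 CPM there and at 8.61 to 8.88 CPM in the others. The sum of the 4 genes was 2130 CPM against 2042 to 2047 CPM, and the sum of the 3 Tcte3 copies was 2119 CPM against 2033 to 2038 CPM. Gm3435 made up 0.536% of the reads on the 4 genes, against 0.422% to 0.435% in the others. These 4 were found among 34 groups of 4 testes examined, where chance gives about 1 in 20, or 1.7. The 4 measures are not independent, since both sums hold nearly the same reads and the share is built from Gm3435. Their number is therefore not read as an excess. Without that testis the log2 difference of the sum between Irp1-/- and WT testes was 0.37, and all other Irp1-/- testes were still above all WT testes for each of these measures. Its library was the smallest of the series, with 15902473 counts.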

How the results depend on the processing

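Over the number of genes past the threshold and the log2 difference of the summed genes in both comparisons, 49 alternative values stayed within the limits set for a change. Of the others, 2 changed sign, 5 kept their sign but moved by more than the SD between replicates, and 6 were gene counts that changed by over 1.5 times. For the summed genes in Irp2-/- against WT, the limit was a change of sign or a p crossing 0.05. The exact test could not reach 0.05 there, so apart from a change of sign its values stayed within the limit by construction. In the fits with a replicate block, a testis whose number the other genotype lacked had its own term and dropped out of the contrast. Irp1-/- against WT then rested on replicates 1 and 2 of each genotype, and Irp2-/- against WT on replicates 1 to 3. The block values are therefore no check over all testes. The number of genes past an adjusted p of 0.05 (edgeR) in Irp1-/- against WT rose from 164 to 439 with this block. It was 55 to 216 when 1 replicate was left out, lowest without Irp1-/- replicate 1. It was 102 without Irp1-/- replicate 6, 84 without WT replicate 2 and 106 without WT replicate 4. In Irp2-/- against WT it was 132 with the replicate block and 118 to 223 when 1 replicate was left out, against 196, lowest without Irp2-/- replicate 2. The cause of the changes on leaving out single replicates was not tested. The log2 difference of the 4 genes summed between Irp1-/- and WT, 0.38, was 0.37 to 0.40 when 1 replicate was left out and 0.34 with the replicate block in edgeR. Taken alone, by construction, Tcte3 gave 1.01, Gm3417 0.28, Gm3448 0.28 and Gm3435 0.79. Between Irp2-/- and WT the summed value of -0.03 turned to 0.26 for Tcte3 alone and 0.066 for Gm3435 alone, and was -0.06 to -0.01 when 1 replicate was left out. Gm3435 alone in edgeR was -0.13 to 0.25 when 1 replicate was left out, and the negative value came without Irp2-/- replicate 3. Tcte3 in Irp2-/- lost its call in 5 settings. With the block Tcte3 kept its call (adjusted p = 0.0312, edgeR). That fit left WT replicate 4 out of the contrast and matched numbers that were not taken to pair mice. The block changed no other call of the 4 genes. Depth limited Gm3435 most, with 89 to 197 reads per library.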
